A study of Mus musculus with 8 samples.

Results

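The 10 genes described here, Bcl2, Bcl2l1, Mcl1, Bax, Bak1, Bcl2l11, Bbc3, Pmaip1, Bid and Bad, encode core members of the Bcl2 family of apoptosis regulators. They were taken by symbol from the 23284 gene symbols counted in each library, and all 10 had counts in every library. The libraries were made from ID8 IP2, a mouse ovarian surface epithelial cancer line of C57BL/6 origin, cultured with 10% serum. Control lines carried the empty pCCL lentiviral vector, and Notch3IC lines carried it with codons 1664 to 2318 of Notch3, the intracellular domain with an HA tag, ahead of an IRES and GFP. By the study's methods all lines also carried a luciferase and mCherry vector, and each matched set came from an infection of its own. The study's later testing pointed to mycoplasma in all the ID8 IP2 lines for the whole of its experiments. Sets 1 to 4 were sequenced, with 1 Control and 1 Notch3IC library in each. The counted reads of Control came to 24910528, 19013578, 23601232 and 28208072 in set order, and those of Notch3IC to 22980440, 15524262, 25344051 and 27107061. Because replicates were separate infections of 1 cell line, p-values measure the spread between such lines.

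Bcl2 family proteins decide whether the outer mitochondrial membrane is breached. The survival proteins BCL2, BCL-XL (from Bcl2l1) and MCL1 hold back the pore-forming effectors BAX and BAK (from Bak1). BH3-only proteins, among them BIM (from Bcl2l11), PUMA (from Bbc3), NOXA (from Pmaip1), BID and BAD, bind the survival proteins or the effectors and push the cell towards death once the membrane releases cytochrome c to the apoptosome and its caspases. Notch intracellular domains act in the nucleus with the DNA-binding protein RBPJ, and ovarian cancers often depend on BCL-XL and MCL1 for survival.

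The promoter windows of the family were read from RefSeq (GRCm38.p6, 250 bases before to 50 bases after a start), since the expressed insert acts through RBPJ, whose binding sequence has the core letters TGGGAA. These letters, or TTCCCA on the other strand, were found for 2 of the 9 members whose windows were read. They were found for 28.3% of all 27025 genes and in 25.6% of all 32851 windows. Bcl2, on the minus strand of chromosome 1, had none in its window, and the 250 bases before its start are shown because Bcl2 is the member that rose. Bax (minus strand, chromosome 7) had a match 137 bases before its start, and Bad (plus strand, chromosome 19) had its nearest pair of matches at 118 and 104 bases before a start. The capitals mark the matched letters in Bax and the match at 118 bases in Bad, each read along the gene's own strand:
Bcl2, chr1:106714291-106714540: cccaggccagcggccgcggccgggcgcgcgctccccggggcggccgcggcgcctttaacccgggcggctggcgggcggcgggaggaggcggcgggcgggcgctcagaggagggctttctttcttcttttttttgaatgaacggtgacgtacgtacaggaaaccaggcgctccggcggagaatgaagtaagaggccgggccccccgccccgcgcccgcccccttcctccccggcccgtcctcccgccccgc
Bax, chr7:45467018-45467047: accatgaatctaTGGGAAgaagaaataatg
Bad, chr19:6941731-6941760: ggggactaccatTTCCCAcgcttagattcc
A match is a description of letters, and its absence from a window says only that the letters are not there. No window was read for Pmaip1, because member windows on its chromosome (18) were left out of the search.

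Expression of the insert was checked first. In set order, Notch3 was counted 39, 34, 74 and 53 times in Control and 3864, 319, 10026 and 6915 times in Notch3IC. After normalization to the mean library size (normalized counts) Notch3 was at 48.0 ± 15.3 in Control lines and at 4960 ± 3627 in Notch3IC lines (SD, n = 4 each), and reads of the insert and of the cells' own gene cannot be told apart. The Notch targets Hey1, Heyl and Nrarp rose with it, as all 4 check genes were called. Leaving out all of Set 3 or Set 4 took their edgeR adjusted p to 0.215 and 0.221, at log2 fold changes still above 6. Heyl, which had 0 to 2 counts in Control, reached 1927, 147, 7460 and 4628 counts. The Notch3IC library of Set 2 stood apart, with 467 normalized counts of Notch3 against 4319 to 9214 in the other Notch3IC libraries, and where leaving it out changed a call, the value without it is given.

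To compare the members with each other, counts scaled to library size (CPM) were divided by the length of the merged exons in kilobases (CPM per kilobase, GENCODE M21 models on GRCm38). Mcl1 was the most abundant member, at 100.4 ± 5.9 (SD, n = 4) CPM per kilobase in Control, and the effectors Bak1 (68.2 ± 6.7) and Bax (66.5 ± 9.3) followed. Bad was at 18.5 ± 1.6, Bcl2l1 at 13.4 ± 2.9, Pmaip1 at 9.17 ± 2.09 and Bcl2l11 at 6.70 ± 1.55 CPM per kilobase. Bid (5.07 ± 0.34), Bbc3 (2.72 ± 0.26) and Bcl2 (1.25 ± 0.12 CPM per kilobase) were the lowest. In this order the Control ranges of neighbours were separate between Mcl1 and Bak1, between Bax and Bad, between Bid and Bbc3 and between Bbc3 and Bcl2, and they overlapped between all other neighbours. The order of the means was the same in Notch3IC, where Bcl2 was still the lowest member at 2.56 ± 0.64 CPM per kilobase. With the longest transcript as the length, Bax came before Bak1 and Bcl2l11 before Pmaip1.

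**Figure D1:**
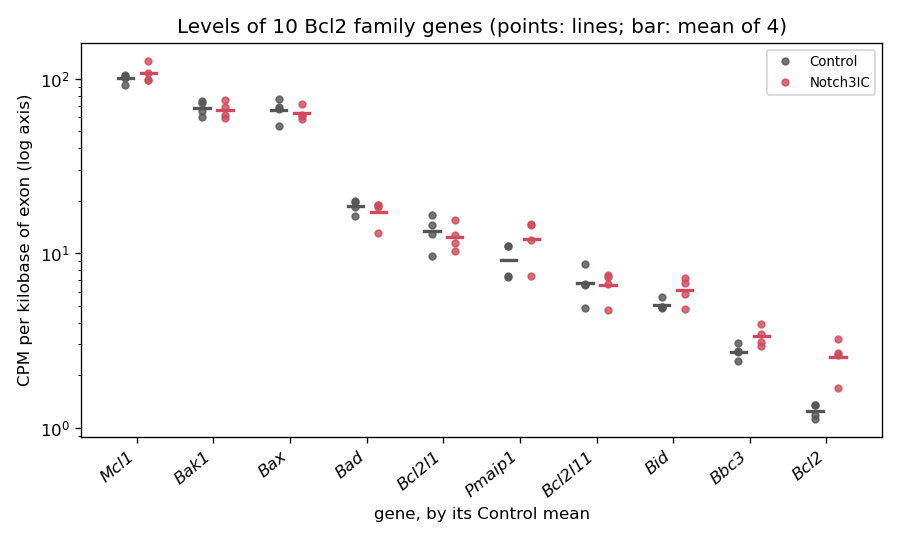
Levels of the 10 genes in CPM per kilobase of exon on a log axis, ordered by the Control mean. Each point is 1 line and each bar the mean of 4; Mcl1 is at the top near 100.4 and Bcl2 at the bottom, where the Control points (1.12 to 1.36) lie apart from the Notch3IC points (1.69 to 3.23).

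The central comparison asked which family genes differ between Notch3IC and Control cells. A gene was called with edgeR's quasi-likelihood test when its adjusted p was under 0.1 and it differed by 1 or more on the log2 scale. Of the 10 members, all past the expression filter, 1 was called higher (Bcl2), against 3.40% of the 12430 genes tested. None was called lower, against 0.740% of all genes. No member lower in Notch3IC had an unadjusted p under 0.05 in edgeR or a call in DESeq2. At that unadjusted p 1462 of all genes tested were higher and 827 lower, the background for each such count below. The fold changes ran from -0.11 to 1.03 on the log2 scale, with 5 members higher and 5 lower and a median of 0.03, beside a median of -0.01 over all genes tested. The 4 Notch3IC libraries of Bcl2 lay above its 4 Control libraries, as for 7.08% of all genes tested, and no member had the reverse (3.75% of all genes). Bcl2 and Bbc3 were higher in Notch3IC in 4 of 4 sets and no member was lower in all 4, against 40.4% of all genes with 1 direction in 4 of 4 sets. By adjusted p alone the count of members was 1 higher and none lower, against 6.69% of all genes in either direction. With the set as a block 645 genes were called higher (5.19%) and 315 lower (2.53%) in place of 423 and 92, and Bcl2 was again the member called. By the adjusted p of the block alone 1 member was higher and none lower, against 14.9% and 12.1% of all genes.

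Bcl2, the founding survival gene of the family, rose in the Notch3IC lines. In set order, its normalized count was 239, 254, 290 and 287 in Control, and 576, 362, 690 and 557 in Notch3IC. All Notch3IC libraries lay above all Control libraries, and the Set 2 library was the lowest of them. The mean rose from 267 ± 25.0 to 546 ± 136 (SD, n = 4 each), a log2 fold change of 1.03 ± 0.19 (SE; 95% interval 0.60 to 1.47), or 2.04-fold, with an edgeR adjusted p of 0.0311. In these bulk samples more cells with Bcl2 RNA and more of it per cell cannot be told apart. A block for the set gave 1.00 ± 0.15 (edgeR adjusted p = 0.0260), and DESeq2 gave 1.01 (adjusted p = 9.68e-05). Within Sets 1 to 4 the log2 ratio was 1.27, 0.51, 1.25 and 0.96. By p, Bcl2 ranked 204 among the genes tested.

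The call on Bcl2 lies near both limits. Without the Notch3IC library of Set 2 its log2 fold change was 1.18 (edgeR adjusted p = 0.00223). Of the 4 fits that each left out a whole set, the call held without Set 2 (1.16, adjusted p = 0.00897) and was lost without Set 1 (0.95, 0.0898), Set 3 (0.94, 0.246) or Set 4 (1.06, 0.319). With the set as a block it likewise held without Set 2 (1.16, edgeR adjusted p = 0.00117) and was lost without Set 1 (0.126), Set 3 (0.124) or Set 4 (0.102). Among fits without 1 library, the call was lost on the fold limit without the Control library of Set 1 (0.98, adjusted p = 0.0604) or the Notch3IC library of Set 3 (0.90, adjusted p = 0.0887). It was lost on the adjusted p, at a log2 fold change above 1, without the Control library of Set 3 (0.105), the Control library of Set 4 (0.112) or the Notch3IC library of Set 4 (0.109). In each of these fits Bcl2 was higher in Notch3IC. The gene occupies chr1:106538178-106714274 on the minus strand (GRCm38), and 6.09% of its exon bases overlap D630008O14Rik on the opposite strand, whose reads cannot be told apart without a strand setting, which the sources used here do not give.

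The other survival genes did not pass the test. Bcl2l1 was at 1035, 1377, 1554 and 1765 normalized counts in Control lines and at 1097, 1218, 1649 and 1361 in Notch3IC. Its groups overlapped across most of their range, and the log2 fold change of -0.11 ± 0.18 (SE) had a 95% interval of -0.53 to 0.31 (edgeR adjusted p = 0.823). Mcl1, which encodes a short-lived survival protein, was at 8357, 8300, 7333 and 8028 normalized counts in Control lines and at 10076, 8537, 7838 and 7829 in Notch3IC. The Notch3IC library of Set 1 held the highest Mcl1 value, and the remaining 3 lay within or near the Control range. The log2 fold change of Mcl1 was 0.10 ± 0.11 (SE, 95% interval -0.15 to 0.35, edgeR adjusted p = 0.703). Both intervals lie wholly within the fold limit of 1 in either direction.

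**Figure D2:**
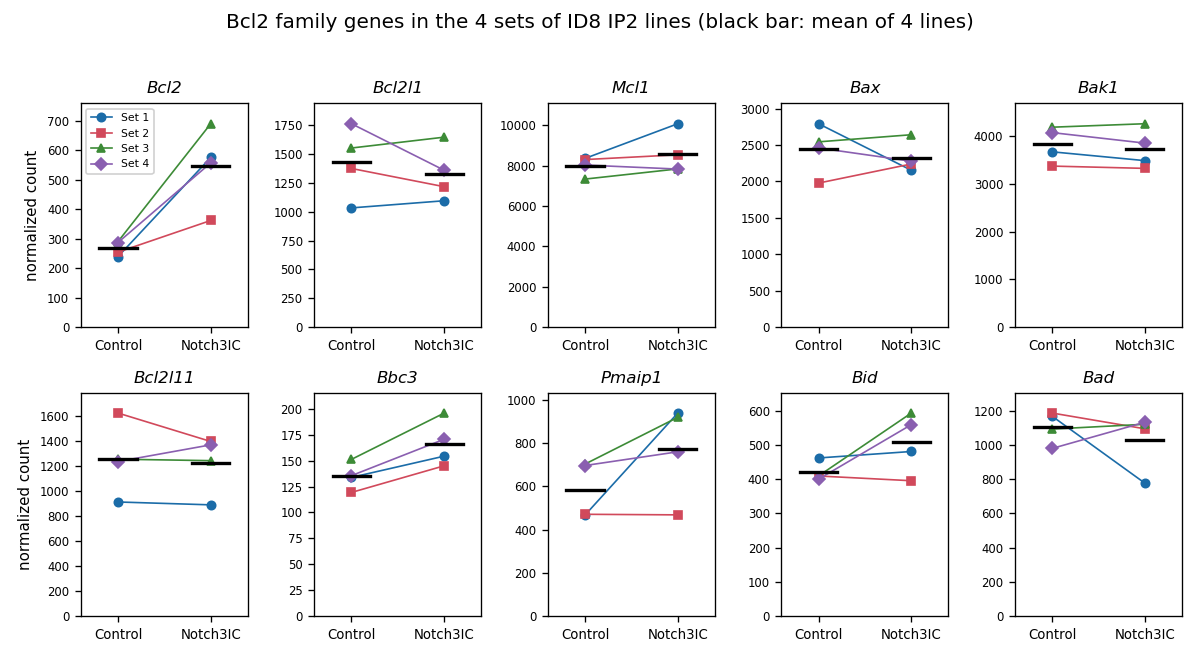
Normalized counts of the 10 genes in each library, with the Control and Notch3IC lines of a set joined and a black bar at the mean of 4. Bcl2 shows no overlap between the groups (239 to 290 against 362 to 690), Bbc3 is higher in Notch3IC in each set with groups that overlap, and the other genes also overlap.

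The effector genes Bax and Bak1, which encode the proteins that open the mitochondrial membrane, kept close levels in both groups. Bax ranged from 1978 to 2793 normalized counts in Control lines and from 2154 to 2642 in Notch3IC, with a log2 fold change of -0.07 ± 0.12 (SE, 95% interval -0.35 to 0.21, edgeR adjusted p = 0.822). Bak1 ranged from 3375 to 4191 in Control and from 3327 to 4263 in Notch3IC, with a log2 fold change of -0.04 ± 0.11 (SE, 95% interval -0.29 to 0.22, edgeR adjusted p = 0.909). Within sets the Bax ratio went both ways, at -0.37, 0.18, 0.05 and -0.11 on the log2 scale, whereas no Bak1 ratio was further from 0 than -0.08. In the reference annotation 25.5% of the exon bases of Bak1 overlap Ggnbp1 on the opposite strand, which had 21 to 51 counts in a library, and 12.2% of those of Bax overlap Gm45808 on the same strand.

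Among the BH3-only genes, Bbc3 was higher in Notch3IC in every set without passing the test. Its normalized count was 134, 119, 151 and 135 in Control and 154, 145, 196 and 171 in Notch3IC. The lowest Notch3IC library was below the highest Control library, so the groups overlapped, while the log2 ratios within Sets 1 to 4 stayed between 0.20 and 0.37. The log2 fold change was 0.30 ± 0.16 (SE, 95% interval -0.06 to 0.67, edgeR adjusted p = 0.357). With the set as a block the interval of Bbc3 was 0.02 to 0.58, and the adjusted p of 0.127 was still above the threshold.

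Pmaip1 and Bid differed between sets. Pmaip1 was at 468, 471, 703 and 696 normalized counts in Control lines and at 939, 469, 919 and 760 in Notch3IC, so that the within-set log2 ratio was 1.00 in Set 1 and -0.01 in Set 2. Its log2 fold change was 0.40 ± 0.24 (SE, 95% interval -0.16 to 0.96, edgeR adjusted p = 0.434). Bid, the substrate through which caspase-8 reaches mitochondria, was at 462, 409, 409 and 400 normalized counts in Control lines and at 481, 395, 593 and 559 in Notch3IC. The Notch3IC libraries of Sets 1, 3 and 4 lay above all Control libraries and that of Set 2 below them. The log2 fold change of Bid was 0.27 ± 0.14 (SE, 95% interval -0.05 to 0.59, edgeR adjusted p = 0.345). Bcl2l13 on the opposite strand covers 17.7% of its exon bases. Without the Notch3IC library of Set 2, which had the least Notch3, the adjusted p was 0.0925 for Bid at a log2 fold change of 0.37 and 0.105 for Pmaip1 at 0.57, both below the fold limit. With the set as a block and Set 2 left out, both passed the adjusted p, again below the fold limit. The log2 fold changes were 0.36 for Bid (edgeR adjusted p = 0.0648) and 0.50 for Pmaip1 (0.0736). In that block fit 5816 of the 12492 genes tested had an unadjusted p under 0.05 in edgeR, and 3 members passed the adjusted p. In the fit without the Notch3IC library of Set 2 it was 3030 of 12588 genes.

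Bcl2l11 and Bad did not shift in one direction. Bcl2l11, the gene of BIM, ranged from 913 to 1623 normalized counts in Control lines and from 890 to 1396 in Notch3IC, and both Set 1 libraries held its lowest values. Its log2 fold change was -0.04 ± 0.20 (SE, 95% interval -0.49 to 0.42, edgeR adjusted p = 0.953). Bad ranged from 979 to 1186 in Control and was at 777, 1094, 1120 and 1132 in Notch3IC, with the library of Set 1 far below the other 3. The log2 fold change of Bad was -0.10 ± 0.14 (SE, 95% interval -0.41 to 0.21, edgeR adjusted p = 0.758). Of its exon bases 20.5% overlap Gpr137 on the opposite strand, which had 454 to 921 counts in a library and an edgeR adjusted p of 0.898.

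**Figure D3:**
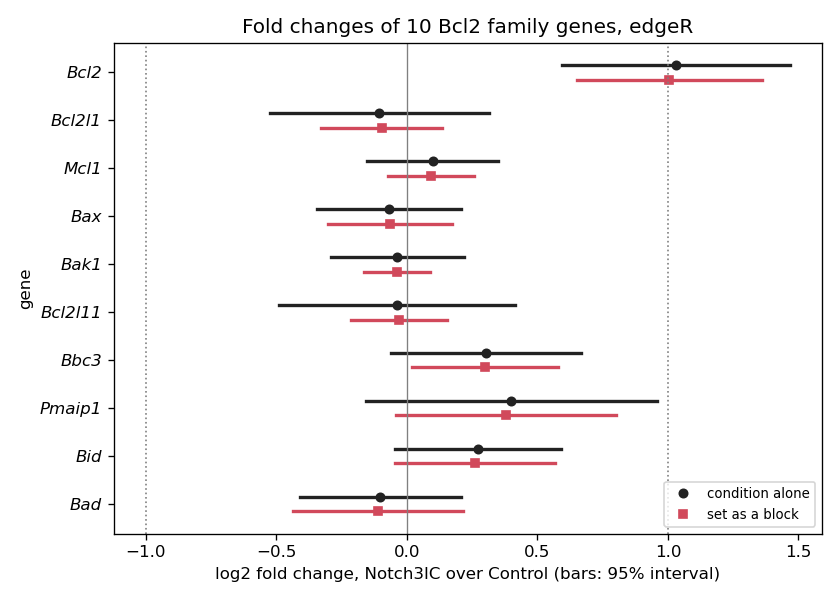
Log2 fold changes of the 10 genes, Notch3IC over Control, with 95% intervals from edgeR with condition alone (circles) and with the set as a block (squares); dotted lines mark the fold limit of 1. Bcl2 is the gene whose interval lies wholly above 0 in both fits, and the block interval of Bbc3 (0.02 to 0.58) also clears 0.

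The balance between members was described by ratios of counts within a library. Bax over Bcl2 was 3.55, 2.96, 3.13 and 3.10 on the log2 scale in the Control libraries and 1.90, 2.63, 1.94 and 2.03 in the Notch3IC libraries, with means of 3.19 ± 0.25 and 2.13 ± 0.34 (SD, n = 4 each). Bak1 over Bcl2 likewise went from 3.84 ± 0.09 to 2.81 ± 0.28, and Bbc3 over Bcl2 from -0.99 ± 0.12 to -1.69 ± 0.26. These ratios were lower in 4 of 4 sets with no overlap between the groups, while Bcl2l11 over Bcl2 (2.21 ± 0.32 to 1.18 ± 0.58) was lower in 4 of 4 sets with overlap. All have Bcl2 as the denominator and no numerator was called, so their falls restate the rise of Bcl2. The same numerators over Bcl2l1 or Mcl1 overlapped between the groups in all 8 ratios formed. Of these, Bak1 over Mcl1 was lower in 4 of 4 sets (mean difference -0.13 on the log2 scale), Bbc3 over Bcl2l1 was higher in 4 of 4 (0.39), and the other 6 went both ways. Since Bcl2 is a low member, its part of the summed CPM per kilobase of Bcl2, Bcl2l1 and Mcl1 stayed small, at 0.967 to 1.26% in Control and 1.41 to 2.76% in Notch3IC, whereas Mcl1 made up 85.0 to 90.7% and 84.1 to 90.7%.

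Of 16 further Bcl2 family genes 7 passed the expression filter and none was called by edgeR or DESeq2, with none at an unadjusted p under 0.05. Bcl2l2, the gene of the survival protein BCL-W, was at 1277 ± 50.2 normalized counts in Control lines and 1364 ± 112 in Notch3IC (SD, n = 4 each), a log2 fold change of 0.10. Bmf, a BH3-only gene, had the widest spread, with 80.3, 574, 327 and 380 normalized counts in Control lines and 125, 302, 1068 and 838 in Notch3IC. Its within-set log2 ratios were 0.64, -0.93, 1.71 and 1.14, so that Set 2 went the other way, and the log2 fold change of 0.78 ± 0.71 (SE) had an edgeR adjusted p of 0.627. With the set as a block and Set 2 left out Bmf was called (1.24, edgeR adjusted p = 0.00786). In that fit 5816 of the 12492 genes tested had an unadjusted p under 0.05 in edgeR. Bok, an effector-like gene, was at -0.26, the mitophagy receptor genes Bnip3 and Bnip3l at -0.27 and 0.02, Bcl2l12 at 0.14 and Bcl2l13 at -0.11 on the log2 scale. Bcl2l13 was lower in 4 of 4 sets and its groups did not overlap (2705 to 2927 against 2525 to 2679 normalized counts; edgeR adjusted p = 0.484). The survival genes Bcl2a1a, Bcl2a1b, Bcl2a1d and Bcl2l10 and the BH3-only genes Bik and Hrk had at most 2 counts in any library.

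Downstream of the family, the apoptosome, caspases and mitochondrial factors numbered 18 genes, all tested, of which 1 was called higher and none lower (1 lower at an unadjusted p under 0.05, none lower in DESeq2), with a median log2 fold change of -0.03. Casp12, a caspase of the endoplasmic reticulum with a part in inflammation, rose from 289 ± 99.1 to 673 ± 243 normalized counts (SD, n = 4 each), a log2 fold change of 1.22 ± 0.32 (SE; edgeR adjusted p = 0.0837). Its within-set log2 ratio was 0.07 in Set 2 and between 1.36 and 1.91 in the other 3. The call on Casp12 was lost when Control of Set 1, 3 or 4 was left out (edgeR adjusted p = 0.128, 0.148 and 0.237) and when Notch3IC of Set 1, 3 or 4 was (0.117, 0.217 and 0.231). Aifm1, the gene of apoptosis-inducing factor, was lower in 4 of 4 sets without overlap, from 1648 ± 146 to 1284 ± 121 normalized counts, and had an edgeR adjusted p of 0.101 (0.0417 with the set as a block, and 0.0407 when Notch3IC of Set 2 was left out). By the adjusted p of the block alone 2 genes of this list were higher and 1 lower, against 14.9% and 12.1% of all genes. The genes of the apoptosome did not pass the test. Casp9, its initiator caspase, was at a log2 fold change of 0.24, Apaf1 at 0.18 and Cycs, which encodes cytochrome c, at -0.03.

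Of 10 inhibitor of apoptosis genes 7 were tested and none was called by edgeR or DESeq2, with 1 at an unadjusted p under 0.05. That gene was Xiap, the direct inhibitor of caspases, at 1200, 1374, 1285 and 1292 normalized counts in Control lines and 1592, 1442, 1728 and 1696 in Notch3IC. Its groups did not overlap, and the log2 fold change of 0.33 ± 0.09 (SE) passed the adjusted p alone (edgeR, 0.0882, or 0.0494 with the block; 6.69% of all genes passed 0.1 in either direction without it), below the fold limit. Of the 8 fits that each left out 1 library, Xiap passed the adjusted p in the one without the Notch3IC library of Set 2 (0.0335). Leaving out Control of Set 1, 2, 3 or 4 gave 0.130, 0.104, 0.229 or 0.235, and leaving out Notch3IC of Set 1, 3 or 4 gave 0.141, 0.242 or 0.264. Birc3 was at a log2 fold change of 0.10 and Xaf1, an antagonist of XIAP, at 0.34 (edgeR adjusted p = 0.589).

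The death receptor pathway, which joins the family through Bid, held 15 genes, of which 13 were tested and none called by edgeR or DESeq2. At an unadjusted edgeR p under 0.05, 1 was higher and 1 lower, against 1462 and 827 of all 12430 genes tested. The median log2 fold change of the list was -0.23, with 3 genes higher and 10 lower. Over all genes 6020 were higher and 6410 lower, with a median of -0.01. By the adjusted p of the block alone 1 gene was higher and 5 were lower, against 14.9% and 12.1% of all genes. Casp8, which cleaves BID, was at 1066 ± 43.5 normalized counts in Control lines and 1435 ± 339 in Notch3IC (SD, n = 4 each), a log2 fold change of 0.43 (edgeR adjusted p = 0.211, or 0.0890 with the block). Its ratio was below 0 in Set 2, at -0.10, and between 0.47 and 0.68 in the other 3. The adaptor gene Tradd was at -0.27 and lower in 4 of 4 sets without overlap (edgeR adjusted p = 0.250, or 0.0949 with the block), and Traf2 was at -0.29 (0.343, or 0.0935). Casp8 (0.57, edgeR adjusted p = 0.0113) and Traf2 (-0.45, 0.0298) passed the adjusted p, below the fold limit, when Notch3IC of Set 2 was left out. The receptor genes Tnfrsf25, Tnfrsf1b and Fas are named after their values were seen. With the block Tnfrsf25 was called lower (log2 fold change -1.43, edgeR adjusted p = 0.0702), and Tnfrsf1b (-0.57, 0.0219) and Fas (-0.24, 0.0653) passed the adjusted p alone.

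Upstream, 18 genes of p53 and its targets were all tested and none was called by edgeR, with 1 higher and 1 lower at an unadjusted p under 0.05, while DESeq2 called 1 higher. Trp53 itself was at 4940 ± 1485 normalized counts in Control lines and 4754 ± 1222 in Notch3IC (SD, n = 4 each), a log2 fold change of -0.06. Both libraries of Set 1 were high in Trp53, at 7167 and 6571 against 3928 to 4278 in the other 6. Cdkn1a, the cell cycle inhibitor p21, was at 0.92 ± 0.54 (SE; edgeR adjusted p = 0.416) and higher in 4 of 4 sets, with 0.72 and an adjusted p of 0.0698 in the block fit, and Mdm2, whose product degrades p53, at -0.01. Gdf15, a stress-induced cytokine gene, was at 22.1 ± 9.8 normalized counts in Control lines and 75.1 ± 51.9 in Notch3IC, a log2 fold change of 1.77 with an edgeR adjusted p of 0.158 that became 0.0297 with the block and 0.0391 in DESeq2. Gdf15 was called when Notch3IC of Set 2 was left out (log2 fold change 2.09, edgeR adjusted p = 0.0211). By the adjusted p of the block alone 4 genes of this list were higher and none lower, against 14.9% and 12.1% of all genes. The 4 were Gdf15, Cdkn1a, Sesn1 (0.54, edgeR adjusted p = 0.0591) and Phlda3 (0.63, 0.0349), the last named after its value was seen. Bbc3 and Pmaip1 are themselves p53 targets and did not pass the test either.

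Of 12 Foxo, E2f and stress factors that can act on BH3-only genes 10 were tested and none was called by edgeR. At an unadjusted edgeR p under 0.05, 2 were higher, against 1462 of all 12430 genes tested. DESeq2 called 1 gene of the list higher. That gene was Jun, at 924, 506, 639 and 616 normalized counts in Control lines and 2091, 554, 2146 and 1554 in Notch3IC. The Set 2 libraries of Jun were close to each other, and its log2 fold change of 1.24 ± 0.39 (SE) had an edgeR adjusted p of 0.134, or 0.0473 with the block. Jun was called when Notch3IC of Set 2 was left out (1.52, edgeR adjusted p = 0.00530). Foxo3 was at 0.33 (edgeR adjusted p = 0.240, or 0.0930 in that fit) and E2f1 at 0.31 (0.299, or 0.0351 with the block and higher in 4 of 4 sets).

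The kinases, ligases and scaffolds that act on family proteins numbered 16 genes, of which 15 were tested and none called by edgeR or DESeq2 with the fold limit. In edgeR, unadjusted p was under 0.05 for 3 higher and 3 lower genes, against 1462 and 827 of all 12430 genes tested. Of this list 1 higher and 2 lower genes passed the adjusted p alone, of which the 2 lower are described here. With the block 3 higher and 4 lower genes passed it, against 14.9% and 12.1% of all genes. Pim1 and Pim2 encode kinases that phosphorylate BAD. Pim1 was at 1120, 1073, 1437 and 1409 normalized counts in Control lines and 606, 843, 687 and 683 in Notch3IC, and Pim2 was at 105, 106, 121 and 102 against 45.8, 76.1, 55.1 and 60.8. Neither overlapped between the groups, and both were lower in 4 of 4 sets, with log2 fold changes of -0.84 ± 0.14 for Pim1 (SE; edgeR adjusted p = 0.0250) and -0.87 ± 0.20 for Pim2 (0.0575). The Set 2 line showed the smallest within-set difference in both genes, at -0.35 for Pim1 and -0.48 for Pim2 on the log2 scale.

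Both adjusted p-values also moved with single libraries. Pim1 passed without any library other than the Control libraries of Set 3 (0.104) and Set 4 (0.103). Pim2 missed the threshold when Control of Set 3 (0.176) or Set 4 (0.153) was left out, and when Notch3IC of Set 1 (0.101), Set 3 (0.166) or Set 4 (0.176) was. Without the Notch3IC library of Set 2 or without all of Set 2, Pim2 passed the fold limit as well (-1.01, adjusted p = 0.0170, and -1.02, 0.0392), and so did Pim1 without Set 2 (0.0101). Without Set 3 or Set 4 neither passed the adjusted p (0.246 and 0.317 for Pim1, 0.436 and 0.430 for Pim2). In all of these edgeR fits the direction of both genes was the same. Of the exon bases of Pim1, 14.5% overlap Gm26885 on the opposite strand.

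**Figure D4:**
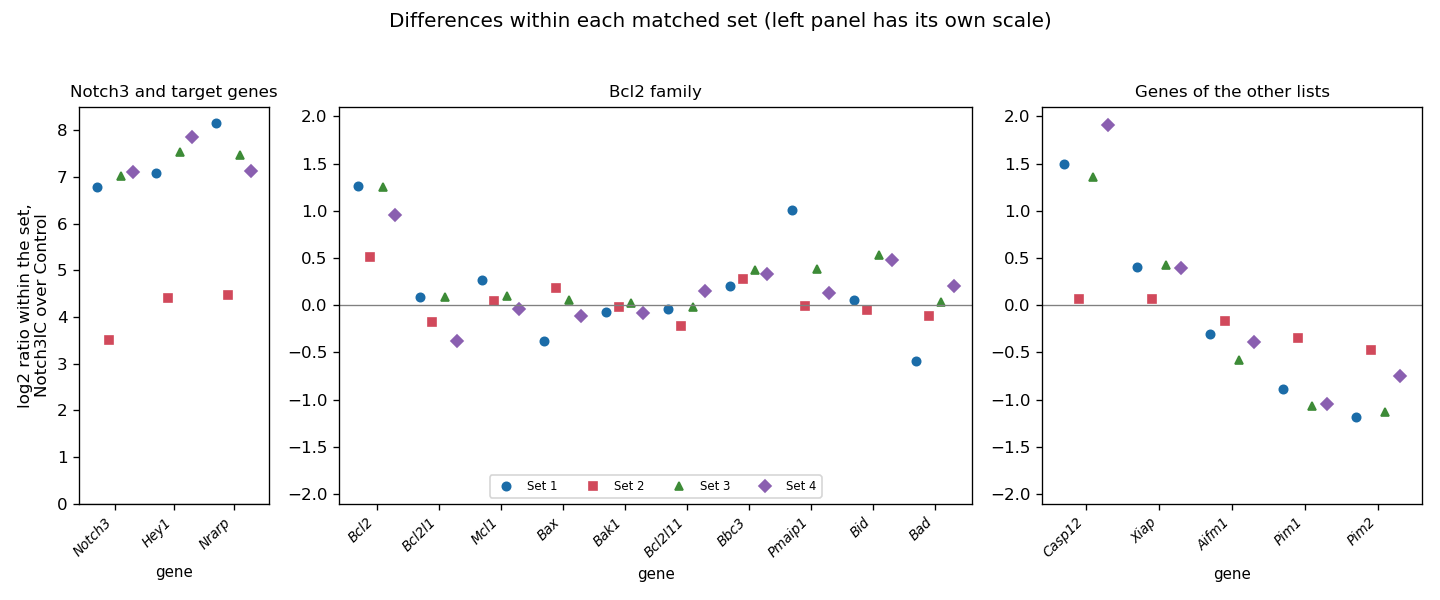
Log2 ratio of Notch3IC over Control within each set (1 line per condition, so no error), for Notch3 and 2 of its targets on their own scale, the 10 Bcl2 family genes, and 5 genes of the other lists. Set 2, with the smallest Notch3 ratio (3.51 against 6.79 to 7.10), also has the ratio nearest to 0 for Bcl2, Bak1, Pmaip1 and Bid among the 10 and for the 5 genes on the right, but not for the other 6 family genes, and it is furthest from 0 for Bcl2l11.

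Across the 8 libraries the genes most like Bcl2 in log2 CPM, among 10368 genes with a mean of at least 100 counts, were Nrarp (r = 0.992), Lhfp (0.990), Notch3 (0.988), AW011738 (0.987) and Ccdc141 (0.986). Nrarp and Notch3 are check genes of the insert and reach that mean through the Notch3IC libraries. Bcl2 was chosen by its small p between the conditions, so a high r with genes that differ between them follows from the choice. The genes most like Bid were Reep3 (r = 0.995), Sdcbp (0.982), Gpr137b (0.971), Atp11b (0.969) and Mgat5 (0.969). These are descriptions over libraries that share their condition and set.

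Because Bcl2 is abundant in lymphocytes, markers of other cell types were read in the same libraries. Leukocyte markers were at or near 0 by their defining genes: Cd3e and Adgre1 had 0 counts in all 8 libraries, Ptprc at most 2 and Itgam at most 1. The 10 leukocyte markers summed to 7.22, 8.28, 7.58 and 9.07 CPM in the Control libraries and 4.93, 7.40, 6.70 and 7.85 CPM in the Notch3IC libraries, mostly from Cd14 and Cd68. Csf1r, at 8.67 ± 2.38 against 24.7 ± 11.01 normalized counts (SD, n = 4 each), was the 1 leukocyte gene called of 3 tested (log2 fold change 1.52, edgeR adjusted p = 0.0719). The call on Csf1r was lost when Control of Set 1, 3 or 4 was left out (adjusted p = 0.110, 0.214 and 0.228) and when Notch3IC of Set 1, 3 or 4 was (0.130, 0.145 and 0.190). The 7 endothelial markers summed to at most 2.20 CPM, most of it Pecam1 or Kdr, and none of the 2 tested was called by edgeR or DESeq2 or had an unadjusted p under 0.05.

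Among markers of the labelled tissue and of fibroblasts 1 gene each was called by edgeR without the block, while the summed level was lower in Notch3IC in 4 of 4 sets for the tissue markers and higher in 4 of 4 for the fibroblast markers. Of the 12 ovarian surface epithelium and mesothelium markers 11 were listed and all of these had counts in every library, although the epithelial markers Epcam (2 to 12 counts) and Krt7 (1 to 46 counts) were near 0. Their sum was 1239, 1912, 2940 and 2850 CPM in Control and 644, 1292, 1269 and 1038 CPM in Notch3IC, with Upk3b the most abundant in Control. Msln, the gene of mesothelin, fell (log2 fold change -2.60, edgeR adjusted p = 0.0625), the 1 called of 9 tested, and 3 were called lower with the block and 3 in DESeq2. The call on Msln was lost when Control of Set 3 (0.162) or Set 4 (0.185) was left out, and when Notch3IC of Set 3 (0.180) or Set 4 (0.195) was. The 8 fibroblast markers summed to 10984, 7251, 5550 and 4629 CPM in Control and 18896, 8969, 10744 and 12857 CPM in Notch3IC, mostly from Col1a1. Pdgfrb was the 1 called of 6 tested (log2 fold change 5.99, edgeR adjusted p = 0.0169). With the block 3 fibroblast markers were called higher, Pdgfrb, Col1a1 (1.04, edgeR adjusted p = 0.0386) and Col1a2 (1.15, 0.0708), and DESeq2 called 2 higher. In the fit without Notch3IC of Set 2, Krt19 was also called lower (-2.43, edgeR adjusted p = 0.0806), and Col1a1 (1.16, 0.0866) and Col1a2 (1.33, 0.0673) higher. The part of these markers in the rise of Bcl2 was not tested.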

How the data were processed

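Polyadenylated RNA of the 8 lines was prepared with a TruSeq kit and sequenced as single-end reads. The authors deposited, for each library, a table of raw read counts by gene symbol that had not been normalized. TopHat, Cufflinks, DESeq and the build mm9 are named in the submitters' processing notes, while versions, annotation and strand setting are not given in the sources used here. The tables hold no coordinates, so gene positions, lengths and overlaps came from GENCODE M21 on GRCm38, and promoter windows from RefSeq (GRCm38.p6).

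Counts were compared with edgeR 4.0.16 (TMM, filterByExpr by condition, robust quasi-likelihood F test) in R 4.3.3 on all symbols. Condition was the single term, and p-values were adjusted by Benjamini-Hochberg over the 12430 genes tested. The thresholds (adjusted p under 0.1, log2 fold change of at least 1) are those the study used. SE is the log2 fold change divided by the square root of F, and 95% intervals use the fit's degrees of freedom. Normalized counts are counts over the TMM-scaled library size times the mean library size of 23336153. Ratios within a set or library use a pseudocount of 0.5. The biological coefficient of variation was 26.3%, or 14.1% with the set as a block. In a library of these sizes 1 CPM is 15.9 to 29.5 counts. The limit that a count of 0 allows is 3 counts of a library, and such limits cover counting error only.

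The sets are matched lines by the study's description, and the deviations of the Control and Notch3IC libraries from their group means correlated at 0.82, 0.384, 0.577 and 0.393 within Sets 1 to 4, against -0.514 to 0.375 across sets. The block is an alternative because the study names no set term.

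Other settings were the replicate block, DESeq2 1.42.0, scaling by RLE, by upper quartile or by library totals alone, no expression filter, a minimum of 10 counts throughout, no fold limit, a stricter adjusted p of 0.05, a pseudocount of 2, the longest transcript as the length, and leaving out each library or set. The block with no fold limit was added after seeing the data. The members and the 13 gene lists were chosen with earlier results of these data known. Named were all members, all further family genes past the filter, the check genes, Casp9, Apaf1, Cycs, Xiap, Trp53, Cdkn1a, Mdm2 and Foxo3, and in each list the called genes and those of smallest p up to 3. The 5 genes of highest Pearson r were named for the 2 members of smallest p. Some genes of the lists are in the counts but are not reported here. The scripts were tested on simulated data. Figures were drawn with Matplotlib. Proteins and cell assays were not analysed here.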

Additional observations from a re-analysis of the deposited data

Results flagged for a closer look

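Among 114 groups of 4 libraries (56 named genes and the library total, in Control and in Notch3IC), 8 held a library far from the other 3, where chance flags about 1 in 20 groups (5.7 of 114). Of the 10 Bcl2 family genes, Bid was high in the Control library of Set 1 (462 normalized counts against 400.1 to 409.4 in the other Control libraries), and Bad was low in the Notch3IC library of Set 1 (777 against 1094 to 1132). Bnip3l, a family gene of mitophagy, was low in the Notch3IC library of Set 1 (1043 against 1855 to 2001 normalized counts). Trp53 was high in both Set 1 libraries, at 7167 against 4147 to 4235 in Control and 6571 against 3928 to 4278 in Notch3IC. Sesn1, a p53 target, was low in the Control library of Set 1 (491 against 707 to 745), and the endothelial marker Kdr was high in the Notch3IC library of Set 1 (24.6 against 8.44 to 11.03). Notch3 was high in the Control library of Set 3 (70.8 against 38.6 to 42.0 normalized counts). The cause of these differences was not tested.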

How the results depend on the processing

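Bcl2 was higher in Notch3IC under all 23 settings fitted across genes. Its log2 fold change ran from 0.90 to 1.18 when 1 library or set was left out, block included, and was 0.99 with library totals alone (edgeR adjusted p = 0.0397), below the fold limit. The replicate block left the calls among the 10 members as they were. The number of members called was 1 in the main analysis, 0 with library totals alone, and 0 to 1 with a library or set left out. Directions of the uncalled Bcl2l1, Bax, Bak1, Bcl2l11 and Bad reversed without single libraries or sets, in ranges of -0.24 to 0.0085, -0.16 to 0.036, -0.11 to 0.013, -0.16 to 0.11 and -0.22 to 0.040 on the log2 scale. So did Bnip3l (-0.15 to 0.20, and -0.0071 with library totals), Cycs (-0.13 to 0.12), Trp53 (-0.25 to 0.18), Mdm2 (-0.17 to 0.086) and Birc3 (-0.013 to 0.24).

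Over all genes 423 were called higher and 92 lower. DESeq2 called 708 and 192, and the replicate block 645 and 315, or 1858 and 1509 with no fold limit. No fold limit alone gave 622 higher and 210 lower, and an adjusted p under 0.05 gave 290 and 48. Leaving out a library or set gave 0 to 904 higher and 0 to 426 lower. Summed over the 7 apoptosis lists beside the members, 1 gene was called, against 3 in DESeq2 and 0 with library totals. The sum was 4 with the block, 0 at an adjusted p under 0.05 and 5 with no fold limit. The block with no fold limit gave 23, and leaving out a library or set gave 0 to 6. Without the Notch3IC library of Set 2 the sum was 4 (Casp12, Gdf15, Jun and Pim2). The lists held 7, 18, 7, 13, 18, 10 and 15 tested genes. Over all genes 6.69% passed with no fold limit. With the block and no fold limit 14.9% were higher and 12.1% lower. The sums were not tested against these shares.

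Bcl2 had 213 to 751 reads in a library. No cause of a lost call was tested.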
